A study of Mus musculus with 21 samples.

Results

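The genes described here are Pou5f1, which encodes OCT4, and 8 other genes known to be active in pluripotent mouse cells: Zfp42, Sall4, Mycn, Utf1, Lin28a, Tdh, Fbxo15 and Jam2. They were found by gene symbol, and all 9 are among the 16443 genes of the deposited values. The question they bear on is whether genes known as joint targets of OCT4 and SOX2 hold their level when an engineered SOX17 takes the place of SOX2. OCT4, a POU-domain factor, and SOX2, an HMG-box factor, bind side by side at enhancers of pluripotent cells, the Pou5f1 enhancer among them. SOX17 is an HMG-box factor of the endoderm that in its natural form does not pair with OCT4 as SOX2 does.

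Poly(A) RNA was sequenced from 21 libraries of 2TS22C, a single mouse embryonic stem cell line known for carrying a Sox2 transgene that doxycycline turns off. FNV cells carried a lentivirus with SOX17FNV, miniSOX cells a lentivirus with miniSOX (a name the labels do not explain), and SOX2 cells a lentivirus with SOX2. In each of these lines the cells' own SOX2 was silenced and DOX was the treatment. NTC cells were not transduced, are labelled WT and have no DOX treatment listed. The SL medium held serum and LIF, and the 2i medium held inhibitors of MEK and GSK3 as well. In 2i there were 4 FNV, 2 miniSOX, 4 SOX2 and 3 NTC libraries, and in SL 2 libraries of each line. The first wave of deposition held 12 libraries, replicates 1 and 2 of FNV, SOX2 and NTC in both media. The second wave held 9 libraries, all of miniSOX and those called p21 or p31, which are all in 2i. The labels call some second-wave libraries biological replicates and say nothing of separate cultures for the others, so the p-values measure a spread that may in part be technical.

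The values are the authors' normalized whole numbers, and every library holds nearly the same set of values, so read depth is unknown and identical values in several libraries are common. Sox2 lay between 19 and 60 in FNV and miniSOX cells and between 533 and 2697 in SOX2 and NTC cells, while Sox17 lay between 1792 and 30391 in FNV and miniSOX cells and between 0 and 6 elsewhere. In FNV cells Sox17 was 1792 to 3301 in 2i and 13693 to 30391 in SL. In miniSOX cells it was 1813 to 1953 in 2i and 4138 to 4179 in SL. Sox2 in SOX2 cells was 939 to 1509 in 2i and 921 to 1389 in SL. Medium and Sox17 level thus cannot be told apart in FNV and miniSOX cells. In 2i the second-wave libraries stood apart from replicates 1 and 2 of their own line in every line that has both, with an SD of log2 differences of 0.309 to 0.512 in FNV, 0.498 to 0.614 in SOX2 and 0.604 to 0.611 in NTC cells. Between replicates 1 and 2 it was 0.15 in FNV, 0.112 in SOX2 and 0.107 in NTC cells. Between p21 and p31 it was 0.436 in FNV and 0.281 in SOX2 cells. The FNV p21 library thus lay nearer to replicates 1 (0.309) and 2 (0.343) than to p31, so the second wave was not uniform. Nanog, Esrrb and the other embryonic stem cell markers were read in all groups, with sums over 8 markers of 45040 to 83388 in single libraries. Of 12 reference genes, 0 were higher and 1 was lower in FNV than in SOX2 cells in 2i. "Changed" means a limma adjusted p under 0.05 over all 16443 genes, and a log2 change is of (value + 1), which understates the change of low genes.

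**Figure D1:**
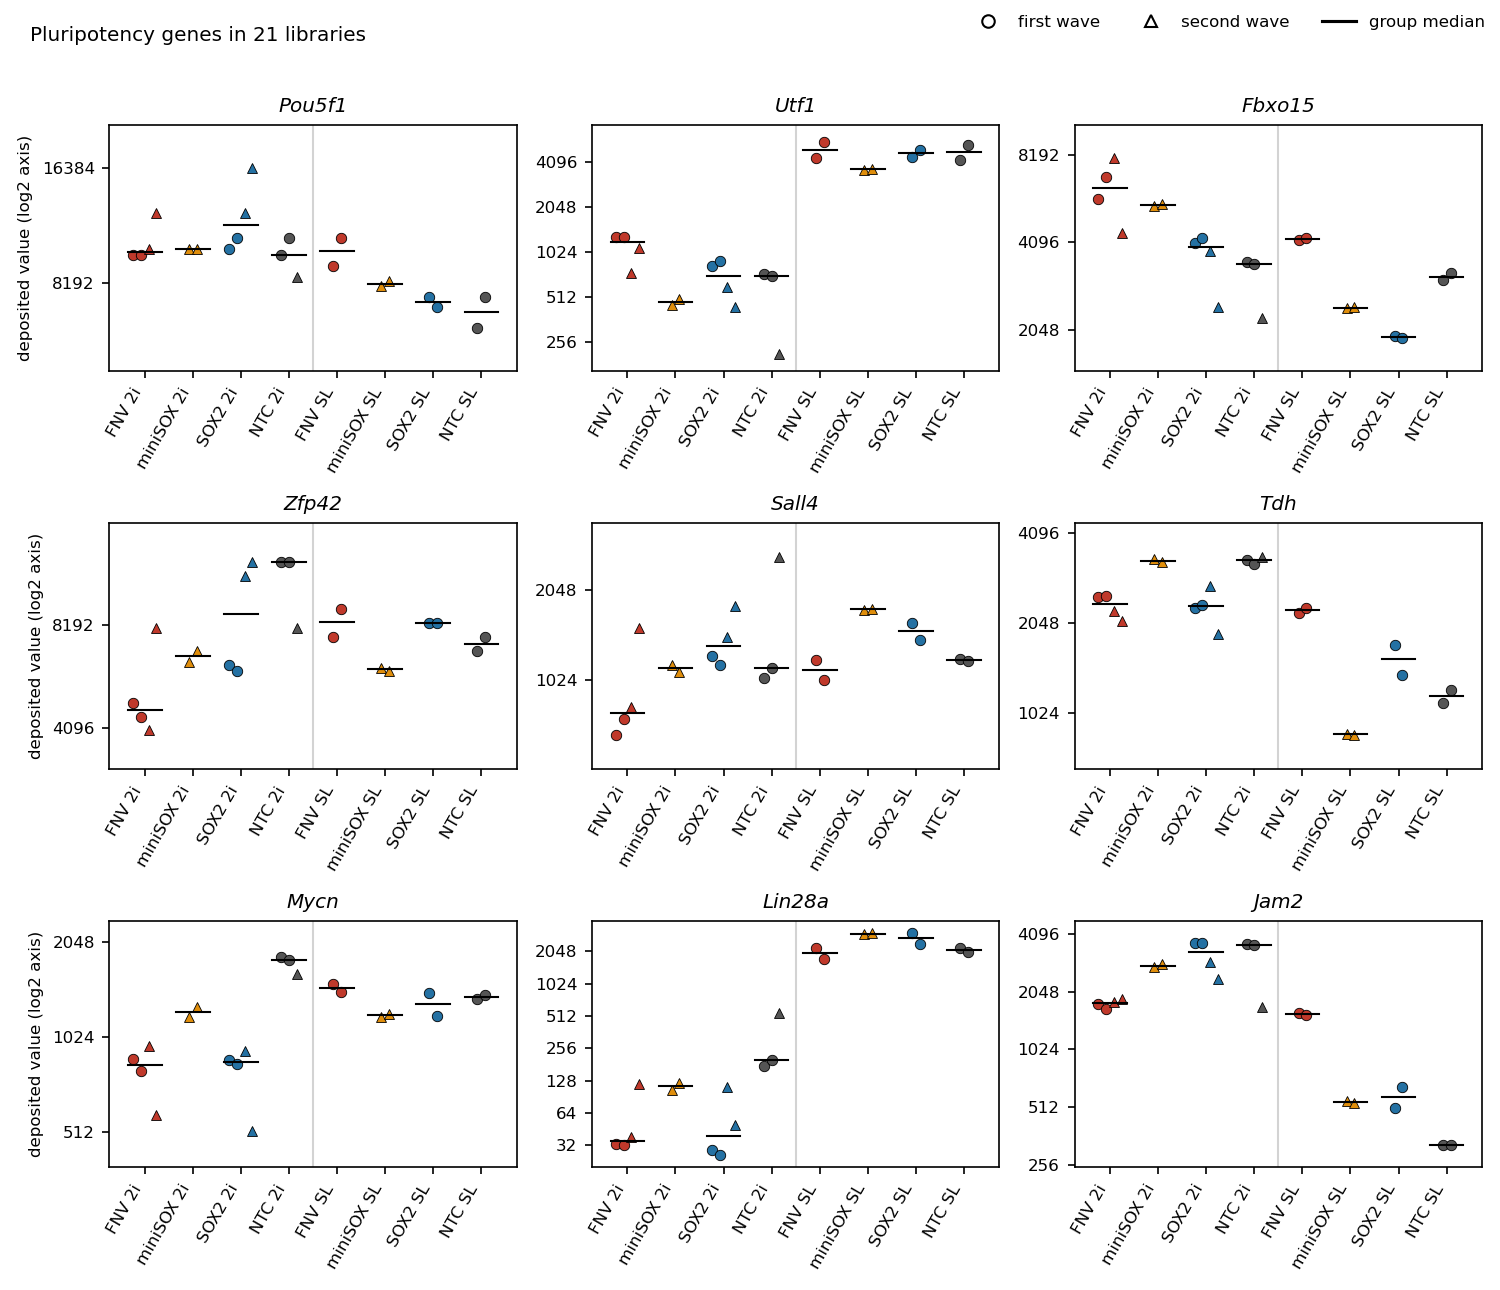
The deposited value of each of the 9 genes (log2 axis) in every library, by line and medium, with circles for first-wave libraries, triangles for second-wave libraries and a bar at the group median. Jam2 in NTC cells lies between 1701 and 3646 in 2i and at 322 and 323 in SL, while in FNV cells it lies between 1663 and 1880 in 2i and at 1578 and 1538 in SL.

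Pou5f1 (ENSMUSG00000024406, chromosome 17, 35506018 to 35510772, plus strand, GRCm38) was high in every library of every line, and the highest library exceeded the lowest by 2.63-fold. In 2i it was 9718, 9718, 10050 (p21) and 12486 (p31) in FNV cells, 10050 and 10050 in miniSOX cells, 10050, 10739, 12486 (p21) and 16422 (p31) in SOX2 cells, and 9718, 10739 and 8466 (p31) in NTC cells. In SL it was 9102 and 10739 in FNV cells, 8024 and 8269 in miniSOX cells, 7522 and 7059 in SOX2 cells, and 6245 and 7522 in NTC cells. The groups overlap in 2i, whereas in SL both FNV libraries lie above every library of the other 3 lines. In bulk RNA, fewer cells of a type and less RNA in each cell cannot be told apart.

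In 2i, Pou5f1 did not pass between FNV and SOX2 cells (log2 change -0.23 ± 0.13 (SE), 95% interval -0.50 to 0.05, adjusted p = 0.224), nor in SL (0.44 ± 0.18, 0.06 to 0.82, adjusted p = 0.0987). The change in SL, which rests on first-wave libraries, did pass in the first wave alone (0.44, adjusted p = 0.0154) and without SOX2 p31 (0.0462) or NTC p31 (0.0378) of 2i. Against NTC cells it passed only for FNV cells in SL (0.53 ± 0.18, adjusted p = 0.0381), a call that ended without FNV replicate 1 (adjusted p = 0.0512), FNV replicate 2 (0.223) or NTC replicate 1 (0.243). Between media it passed in SOX2 cells alone (2i against SL 0.65 ± 0.17, adjusted p = 0.00513). It did not pass in FNV cells (-0.01 ± 0.17, interval -0.37 to 0.34), miniSOX cells (0.30 ± 0.18, adjusted p = 0.223) or NTC cells (0.42 ± 0.17, adjusted p = 0.0805). The span between the highest and lowest group median was 1.69-fold, against a median of 1.87-fold over the 10120 genes whose group medians were all at least 50. Of the 31-base runs of its transcripts, 14.2% also occur in other transcripts, mainly the antisense gene Gm19553 and a processed pseudogene, Gm5712.

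Of 28 measured regulators and partners of Pou5f1, 5 were higher and 4 lower in FNV than in SOX2 cells in 2i, and 5 were higher and 5 lower in SL. The 4 lower in 2i include Sox2, which the SOX2 lentivirus carries. Among all genes 25.2% changed in 2i and 21.4% in SL. Besides Sox2 itself, those with the smallest adjusted p in 2i were Wdr5, a subunit of histone H3 lysine methyltransferase complexes (median 2671 in FNV and 4379 in SOX2 cells), Cdx2 and Esrrb. Cdx2, the trophectoderm factor that opposes OCT4, had a median of 240.0 in FNV and 13.5 in SOX2 cells in 2i. In SL it was low in every line: 0 in both FNV libraries, 0 and 1 in the SOX2 libraries, and at most 20 in miniSOX and NTC libraries. Esrrb, a nuclear receptor of naive pluripotency, had a median of 4852 in FNV and 8021 in SOX2 cells in 2i. Of the POU family, 8 of 12 listed genes were measured, and 0 were higher and 2 lower in 2i, namely Pou4f1 and Pou2f1, which encodes OCT1. Their medians in FNV and SOX2 cells were 31.5 and 74.0 for Pou4f1 and 868.5 and 1329 for Pou2f1.

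Zfp42 (ENSMUSG00000051176, chromosome 8, 43295063 to 43306980, minus strand) encodes REX1, a zinc finger protein widely used as a marker of naive cells. In 2i its values were 4828, 4411, 4034 (p21) and 8025 (p31) in FNV cells, 6371 and 6871 in miniSOX cells, 6247, 5995, 11389 (p21) and 12489 (p31) in SOX2 cells, and 12489, 12489 and 8025 (p31) in NTC cells. In SL they were 7524 and 9105 in FNV cells, 6129 and 5995 in miniSOX cells, 8272 and 8272 in SOX2 cells, and 6871 and 7524 in NTC cells. Within each set of libraries in 2i, FNV cells lay below SOX2 cells: by a log2 change of -0.41 in the first wave, -1.50 between the p21 libraries and -0.64 between the p31 libraries. The FNV p31 library nevertheless lies above both first-wave SOX2 libraries.

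In 2i, Zfp42 fell in FNV against SOX2 cells (-0.74 ± 0.24 (SE) on the log2 scale, adjusted p = 0.0333) and against NTC cells (-1.12 ± 0.26, adjusted p = 0.00288). Within the second wave alone the change against NTC cells was -0.50 (adjusted p = 0.411). The call against SOX2 cells ended without FNV replicate 1 (adjusted p = 0.0622), replicate 2 (0.0802) or p21 (0.0945), or without SOX2 p21 (0.0981) or p31 (0.0974). In SL neither comparison passed, with 0 ± 0.33 (interval -0.71 to 0.72) against SOX2 cells. FNV cells were the 1 line in which Zfp42 passed between media (2i against SL -0.85 ± 0.31, adjusted p = 0.0387), a call that 7 of 21 left-out libraries ended (adjusted p = 0.0518 to 0.202). Of the 31-base runs of its transcripts, 13.4% also occur in a processed pseudogene, Zfp42-ps1, so its reads may be shared with that copy.

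Sall4 (ENSMUSG00000027547, chromosome 2, 168748332 to 168767943, minus strand) encodes a zinc finger protein that binds the NuRD complex and occurs at Pou5f1. It measured 670, 757, 833 (p21) and 1525 (p31) in FNV cells, 1152 and 1089 in miniSOX cells, 1227, 1146, 1422 (p21) and 1804 (p31) in SOX2 cells, and 1040, 1124 and 2635 (p31) in NTC cells in 2i. In SL it measured 1193 and 1022 in FNV cells, 1749 and 1769 in miniSOX cells, 1591 and 1389 in SOX2 cells, and 1201 and 1186 in NTC cells. The p31 library is the highest of its group in all 3 lines that have one, and 3 of the 4 FNV libraries in 2i are below every other library of the series.

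Sall4 fell in FNV cells in 2i, by a log2 change of -0.62 ± 0.17 (SE, adjusted p = 0.0152) against SOX2 cells and against NTC cells (-0.82 ± 0.19, adjusted p = 0.00264). With no wave term neither passed (-0.62, adjusted p = 0.149, and -0.70, adjusted p = 0.0893), and without SOX2 replicate 1 the first did not (-0.55, adjusted p = 0.0576). Within sets of libraries FNV minus SOX2 was -0.73 in the first wave, -0.77 for p21 and -0.24 for p31. In miniSOX cells it fell against NTC cells in 2i by the model (-0.87 ± 0.24, adjusted p = 0.0152), yet both miniSOX libraries lie within the range of the NTC libraries, and without NTC p31 the change was -0.50 (adjusted p = 0.172). It also ended without miniSOX replicate 1 (0.0583) or 2 (0.0843). Within the second wave, where NTC p31 is the only NTC library, the change was -1.23. It was -0.05 with p21 and p31 as terms in place of the wave, which leaves miniSOX libraries unadjusted for the wave. Of 14 other Sall and NuRD genes, 2 were higher and 4 lower in FNV than in SOX2 cells in 2i: Sall3, a paralogue, was at a median of 3.5 in FNV and 36.0 in SOX2 cells, and the histone-binding subunit Rbbp7 changed by 0.77 ± 0.08 (adjusted p = 5.92e-06). In SL 2 of these 14 were higher and 0 lower, and the shares among all genes were 25.2% in 2i and 21.4% in SL.

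Mycn (ENSMUSG00000037169, chromosome 12, 12936093 to 12941914, minus strand) encodes N-MYC, a growth-promoting factor that pairs with MAX. In 2i, FNV cells had 873, 796, 958 (p21) and 577 (p31), miniSOX cells 1178 and 1269, SOX2 cells 861, 841, 924 (p21) and 513 (p31), and NTC cells 1834, 1786 and 1616 (p31). All FNV and SOX2 libraries lie below all miniSOX libraries, and these below all NTC libraries. In SL the values were 1502 and 1422 in FNV cells, 1186 and 1211 in miniSOX cells, 1405 and 1193 in SOX2 cells, and 1347 and 1389 in NTC cells.

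In 2i, Mycn fell against NTC cells in FNV cells (-1.11 ± 0.17 (SE) on the log2 scale, adjusted p = 0.000133) and in SOX2 cells (-1.15 ± 0.17, adjusted p = 0.000236), whereas FNV and SOX2 cells differed by 0.04 ± 0.16 (interval -0.30 to 0.38). In SL the same comparisons with NTC cells gave 0.10 ± 0.22 and -0.08 ± 0.22, and neither passed. The difference between media of FNV against NTC cells was itself -1.20 ± 0.28 (adjusted p = 0.0058), a call that ended with first-wave replicates averaged (-1.21). MiniSOX cells were above SOX2 cells in 2i (0.78 ± 0.20, adjusted p = 0.0192), and this ended without miniSOX replicate 1 (adjusted p = 0.0873), miniSOX replicate 2 (0.136) or SOX2 p31 (0.0561). Of 20 other genes of the MYC and MAX network, 1 was higher and 4 lower in FNV than in SOX2 cells in 2i, and 1 was higher and 7 lower in SL. The shares of all genes that changed were 25.2% in 2i and 21.4% in SL. Mycl, which encodes L-MYC, had a median of 22.0 in FNV and 390.0 in SOX2 cells in 2i (-3.87 ± 0.22, adjusted p = 3.55e-08).

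Utf1 (ENSMUSG00000047751, chromosome 7, 139943789 to 139945112, plus strand) encodes a chromatin-bound protein of undifferentiated cells, and its enhancer downstream of the gene is a classic site of joint OCT4 and SOX2 binding. The values in 2i were 1284, 1287, 735 (p21) and 1079 (p31) in FNV cells, 449 and 494 in miniSOX cells, 817, 892, 593 (p21) and 438 (p31) in SOX2 cells, and 729, 702 and 211 (p31) in NTC cells. In SL they were 4307 and 5574 in FNV cells, 3619 and 3647 in miniSOX cells, 4411 and 4902 in SOX2 cells, and 4233 and 5331 in NTC cells. Every library in 2i lies below every library in SL, and within 2i the FNV libraries include the highest.

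Utf1 was 1.62-fold higher in FNV than in SOX2 cells in 2i (0.70 ± 0.19 (SE) on the log2 scale, adjusted p = 0.0161), with 0.59 in the first wave, 0.31 for p21 and 1.3 for p31. Without FNV p31 (0.52, adjusted p = 0.0541) or SOX2 replicate 1 (0.64, adjusted p = 0.0546) it did not pass. Against NTC cells it rose in FNV cells (1.32 ± 0.21, adjusted p = 0.000176; 2.07 within the second wave) and in SOX2 cells (0.62 ± 0.21, adjusted p = 0.0389), the second of which was 0.20 (adjusted p = 0.437) without NTC p31 and also ended without SOX2 replicate 1 (0.053), 2 (0.0762) or p21 (0.0941) or either miniSOX library in SL (0.05 and 0.0501). In SL, FNV cells differed by 0.08 ± 0.27 from SOX2 cells and by 0.04 ± 0.27 from NTC cells, and neither passed.

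Lin28a (ENSMUSG00000050966, chromosome 4, 134003330 to 134018841, minus strand) encodes an RNA-binding protein that blocks the maturation of let-7 microRNAs, which in turn can bind and repress the Lin28a transcript. Stretches of the Lin28a and Sall4 3′ UTRs are shown because they hold the 7 bases that pair with the let-7 seed, in capitals (CTACCTC, read on the transcript strand only), from GENCODE M21 transcripts on GRCm38.
Lin28a, chr4:134005181-134005210, minus strand: cacagcctgttgaaCTACCTCatttttgcc
Lin28a, chr4:134004543-134004572, minus strand: agatcgccacaaacCTACCTCactgtgttg
Sall4, chr2:168748932-168748961, minus strand: gggctttaatttatCTACCTCaattatctt
The other 7 genes had no such match in the longest annotated 3′ UTR, and among all genes 1529 of 14695 (10.4%) had at least 1. The Lin28a and Sall4 UTRs are 2775 and 1697 bases long, against a median of 1184. These letters say nothing of let-7 levels, which poly(A) libraries do not measure.

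Lin28a had the widest span of the 9 genes, 116.73-fold between the highest and lowest library. In 2i it was 33, 32, 38 (p21) and 120 (p31) in FNV cells, 106 and 121 in miniSOX cells, 29, 26, 113 (p21) and 50 (p31) in SOX2 cells, and 174, 199 and 543 (p31) in NTC cells. In SL it was 2199 and 1749 in FNV cells, 2954 and 3035 in miniSOX cells, 3034 and 2394 in SOX2 cells, and 2199 and 2016 in NTC cells. All libraries in 2i lie below all libraries in SL, and all FNV, miniSOX and SOX2 libraries in 2i lie below the 3 NTC libraries.

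Against NTC cells in 2i, Lin28a fell in FNV cells (-2.69 ± 0.31 (SE) on the log2 scale, adjusted p = 8.83e-06), miniSOX cells (-2.10 ± 0.40, adjusted p = 0.00145) and SOX2 cells (-2.74 ± 0.31, adjusted p = 2.47e-05). Within the second wave, where NTC p31 is the only NTC library, the miniSOX value was -2.25. With no wave term it was -1.22 (adjusted p = 0.192). It was -0.75 (adjusted p = 0.147) with p21 and p31 as terms in place of the wave, which also leaves miniSOX libraries unadjusted for the wave. FNV and SOX2 cells differed by 0.04 ± 0.29 in 2i (interval -0.57 to 0.65), but their p21 libraries differed by -1.55 and their p31 libraries by 1.25, so the order of the lines changed between the pairs. In SL no line passed against NTC cells. Of 18 other genes of the LIN28 and let-7 pathway, 2 were higher and 5 lower in FNV than in SOX2 cells in 2i, and 2 were higher and 4 lower in SL, against 25.2% of all genes in 2i and 21.4% in SL. In 2i the paralogue Lin28b had a median of 153.5 in FNV and 243.0 in SOX2 cells, Igf2bp3, an RNA-binding protein gene known as a let-7 target, 641.5 and 1163, and the uridylyltransferase gene Tut7 1005 and 727.5.

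Tdh (ENSMUSG00000021953, chromosome 14, 63492347 to 63509092, minus strand) encodes threonine dehydrogenase, a mitochondrial enzyme on which mouse embryonic stem cells depend for glycine and one-carbon units. In 2i the values were 2503, 2524, 2240 (p21) and 2074 (p31) in FNV cells, 3357 and 3265 in miniSOX cells, 2305, 2351, 2715 (p21) and 1880 (p31) in SOX2 cells, and 3325, 3237 and 3404 (p31) in NTC cells. In SL they were 2218 and 2305 in FNV cells, 876 and 867 in miniSOX cells, 1730 and 1375 in SOX2 cells, and 1110 and 1227 in NTC cells. The FNV ranges of both media overlap, while in the other 3 lines every library in 2i lies above every library in SL.

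Tdh was higher in FNV than in NTC cells in SL (0.95 ± 0.14 (SE) on the log2 scale, adjusted p = 0.00017) and lower in 2i (-0.50 ± 0.11, adjusted p = 0.00185). Against SOX2 cells it was higher in SL (0.55 ± 0.14, adjusted p = 0.0118), which ended without FNV replicate 2 (0.52, adjusted p = 0.0748) or SOX2 replicate 2 (0.39, adjusted p = 0.13), and differed by 0.02 ± 0.10 in 2i. SOX2 cells, too, were below NTC cells in 2i (-0.52 ± 0.11, adjusted p = 0.00249). MiniSOX cells were above SOX2 cells in 2i (0.57 ± 0.13, adjusted p = 0.00833) and below them in SL (-0.74 ± 0.16, adjusted p = 0.00556). The call in 2i ended without miniSOX replicate 1 (adjusted p = 0.0729) or 2 (0.0586). Of the 31-base runs of its transcripts, 17.1% also occur in other transcripts, mainly a transcribed pseudogene, Gm13929.

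Among 24 other genes of threonine, glycine and one-carbon metabolism, 2 were higher and 6 lower in FNV than in SOX2 cells in 2i, and 6 were higher and 0 lower in SL, near the 25.2% of all genes that changed in 2i and the 21.4% in SL. Gcat, whose enzyme takes the product of TDH to glycine, had a median of 383.0 in FNV and 872.0 in SOX2 cells in 2i (-1.28 ± 0.20 (SE) on the log2 scale, adjusted p = 0.000354), and 846.5 and 819.5 in SL, where it did not pass. Mthfd1, a folate enzyme of the cytoplasm, rose in 2i (0.33 ± 0.05, adjusted p = 0.000139).

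Fbxo15 (ENSMUSG00000034391, chromosome 18, 84934782 to 84981473, plus strand) encodes an F-box protein of ubiquitin ligases and is known as a joint target of OCT4 and SOX2 that was used as a reporter of reprogramming. It stood at 5797, 6869, 8024 (p21) and 4409 (p31) in FNV cells, 5475 and 5573 in miniSOX cells, 4087, 4233, 3819 (p21) and 2446 (p31) in SOX2 cells, and 3513, 3438 and 2253 (p31) in NTC cells in 2i. In SL it stood at 4178 and 4232 in FNV cells, 2429 and 2446 in miniSOX cells, 1946 and 1917 in SOX2 cells, and 3034 and 3208 in NTC cells. FNV and SOX2 libraries do not overlap in either medium, and the FNV libraries are the higher ones.

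Fbxo15 rose in FNV against SOX2 cells by 1.72-fold in 2i (0.78 ± 0.16 (SE) on the log2 scale, adjusted p = 0.00291) and 2.18-fold in SL (1.12 ± 0.23, adjusted p = 0.0035). Both calls held with any 1 of the 21 libraries left out, but both ended with first-wave replicates averaged (0.84 in 2i and 1.12 in SL). The call in 2i was also lost when the fit was limited to second-wave libraries (0.96, adjusted p = 0.165) or to the groups compared (0.78, adjusted p = 0.0546). Within sets of libraries in 2i the change was 0.60 in the first wave, 1.07 for p21 and 0.85 for p31. MiniSOX cells were above SOX2 cells in 2i (0.81 ± 0.21, adjusted p = 0.0196), a call that ended without miniSOX replicate 1 (0.106), miniSOX replicate 2 (0.118) or SOX2 p31 (0.0699). Against NTC cells in 2i it rose in FNV cells (1.09 ± 0.18, adjusted p = 0.000224) and miniSOX cells (1.11 ± 0.23, adjusted p = 0.00255) and did not pass in SOX2 cells (0.30 ± 0.18, adjusted p = 0.228). No line passed against NTC cells in SL: the change was 0.43 ± 0.23 (adjusted p = 0.186) in FNV, 0 ± 0.27 in miniSOX and -0.69 ± 0.23 (adjusted p = 0.0587) in SOX2 cells.

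Jam2 (ENSMUSG00000053062, chromosome 16, 84774123 to 84825928, plus strand) encodes a junctional adhesion molecule of the immunoglobulin family at cell contacts. FNV cells had 1755, 1663, 1805 (p21) and 1880 (p31) in 2i, miniSOX cells 2761 and 2837, SOX2 cells 3681, 3682, 2932 (p21) and 2394 (p31), and NTC cells 3646, 3579 and 1701 (p31). In SL, FNV cells had 1578 and 1538, miniSOX cells 547 and 539, SOX2 cells 505 and 647, and NTC cells 322 and 323. FNV libraries are thus below all miniSOX and SOX2 libraries in 2i and above the libraries of all other lines in SL.

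In 2i, Jam2 fell in FNV against SOX2 cells (-0.82 ± 0.16 (SE) on the log2 scale, adjusted p = 0.00163), with -1.11 in the first wave, -0.70 for p21 and -0.35 for p31. Jam2 in SL was 2.72-fold higher in FNV than in SOX2 cells (1.44 ± 0.22, adjusted p = 0.000485) and 4.82-fold higher than in NTC cells (2.27 ± 0.22, adjusted p = 5.28e-06). All 3 of these calls held with any 1 of the 21 libraries left out, but those in SL rest on 2 libraries of each line. With first-wave replicates averaged, the calls against SOX2 cells ended (-0.72 in 2i and 1.44 in SL). Against NTC cells in 2i it was lower in FNV cells (-0.60 ± 0.17, adjusted p = 0.0126) but 0.11 within the second wave, and the call ended without FNV replicate 1 (0.0517), FNV replicate 2 (0.0551), NTC replicate 1 (0.067) or NTC replicate 2 (0.0638). In SL the change against NTC cells was 0.82 ± 0.22 (adjusted p = 0.023) in SOX2 cells, which ended without SOX2 replicate 2 (0.159), NTC replicate 1 (0.103) or NTC replicate 2 (0.0952), and 1.16 ± 0.26 (adjusted p = 0.00673) in miniSOX cells, at 0.75 (adjusted p = 0.0754) with no wave term.

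Between FNV and SOX2 cells, then, 5 of the 9 genes changed in 2i: Utf1 and Fbxo15 rose, and Zfp42, Sall4 and Jam2 fell. The background was 25.2% of all genes, and the median absolute log2 change was 0.62 over the 9 genes and 0.27 over all genes. With no wave term Utf1 (adjusted p = 0.183), Zfp42 (0.0581) and Sall4 (0.149) did not pass. When first-wave replicates were averaged to 1 library, none of the 5 passed (adjusted p = 0.061 for Jam2 to 0.174 for Sall4), while Jam2 passed within the second wave alone (-0.52, adjusted p = 0.0481). In SL 3 of 9 changed, Fbxo15, Tdh and Jam2, all upward, against 21.4% of all genes, and none of the 3 passed with averaged replicates (adjusted p = 0.0791 to 0.26). In the first wave alone, which holds all these libraries, 6 of 9 passed, Pou5f1 (0.44), Sall4 (-0.43) and Lin28a (-0.46) being the others. Over all genes that fit passed 4538 to 8340 of 16443 in its 11 comparisons, where the main fit passed 1960 to 7381 in 17. It holds only replicates 1 and 2, whose spread may in part be technical.

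Among 30 other known OCT4 and SOX2 targets, 3 were higher and 9 lower in FNV than in SOX2 cells in 2i, and 8 were higher and 5 lower in SL, against 25.2% of all genes in 2i and 21.4% in SL. The 9 lower in 2i include Sox2 itself (-5.11 ± 0.29 on the log2 scale), which the SOX2 lentivirus carries, so the design fixed that call. Nr0b1, which encodes the nuclear receptor DAX1, had a median of 4.5 in FNV and 245.0 in SOX2 cells in 2i, and 15 to 21 in FNV and 617 to 697 in SOX2 libraries in SL. Dppa3, also called Stella, was the other way round, at a median of 1817 in FNV and 289.5 in SOX2 cells in 2i. Phc1, a Polycomb subunit, fell by 0.88 ± 0.11 on the log2 scale (adjusted p = 4.54e-05). Markers of other cell types moved in the same comparison. Of 12 trophectoderm markers 7 were higher and 1 lower in 2i, and their summed value was 6733 to 9025 in FNV and 1957 to 2377 in SOX2 libraries, with Elf5 and Hand1 at most 20 in both. Of 7 measured primitive endoderm markers other than Sox17, which the FNV lentivirus carries, 4 were higher and 0 lower in 2i, with sums of 11400 to 12979 in FNV and 5565 to 7848 in SOX2 libraries. Fibroblast markers gave 3 higher and 2 lower of 11, with sums of 25174 to 40977 in FNV and 23404 to 41353 in SOX2 libraries. In SL the trophectoderm sums were 2672 to 2832 in FNV and 1818 to 2546 in SOX2 libraries, where 1 of 12 markers was higher and 1 lower. The 7 endoderm markers in SL gave 0 higher and 3 lower (Gata6, Dab2 and Pdgfra), with sums of 9154 to 10402 in FNV and 5886 to 6691 in SOX2 libraries, and fibroblast markers 2 higher and 1 lower, with sums of 6880 to 6900 in FNV and 8637 to 10083 in SOX2 libraries. Of 8 embryonic stem cell markers, 2 of which are among the 9 genes, 1 was higher and 3 lower in 2i and 2 were higher and 1 lower in SL. Sox2 is again among the 3 lower in 2i. The part of these cell types in the results was not tested.

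**Figure D2:**
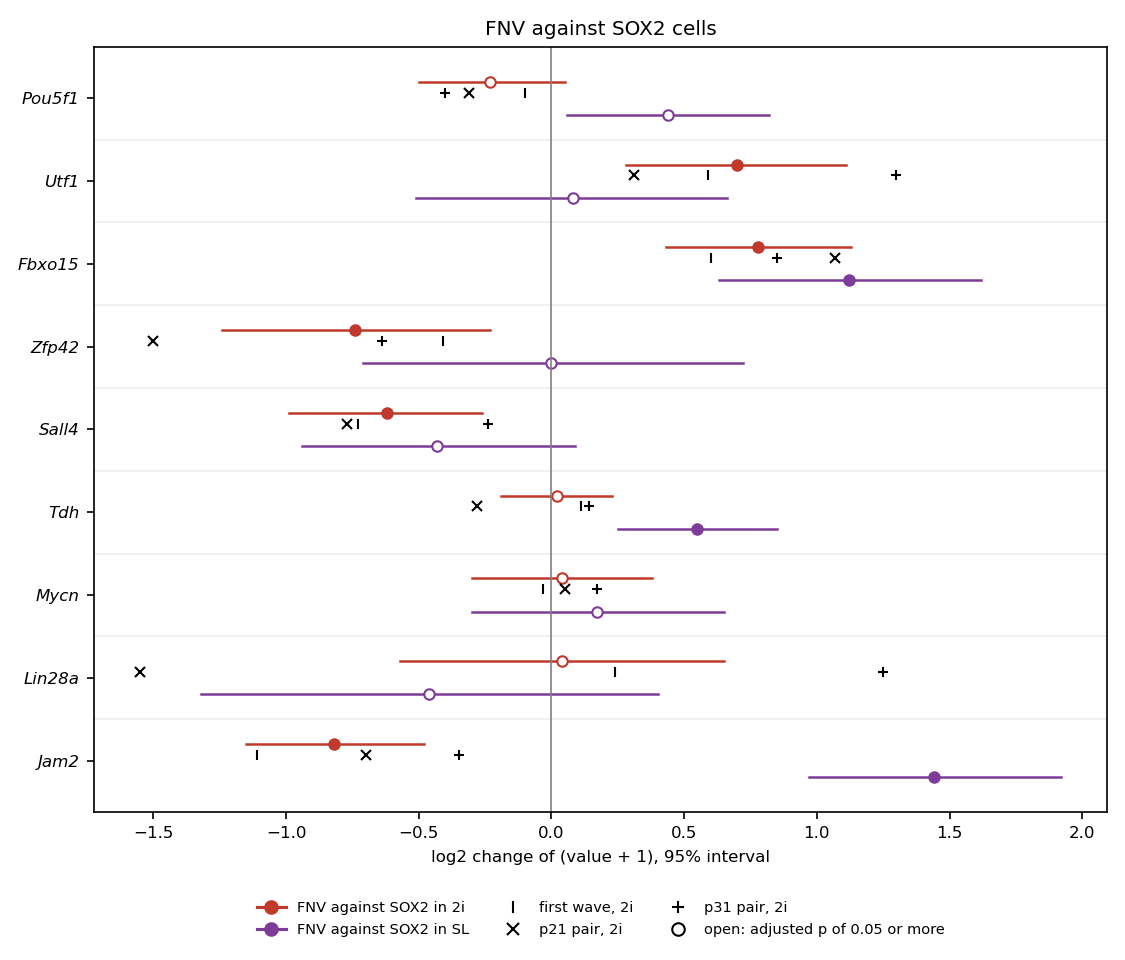
Log2 change of (value + 1) in FNV against SOX2 cells for each gene in 2i (red) and SL (purple), with 95% intervals. Filled points passed at an adjusted p of 0.05, and black marks give the values within the first wave, the p21 pair and the p31 pair in 2i. Fbxo15 lies at 0.78 in 2i and 1.12 in SL, and Jam2 lies at -0.82 in 2i and 1.44 in SL.

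MiniSOX against SOX2 cells gave 3 of 9 genes in 2i, Fbxo15, Tdh and Mycn, all higher, where 14.9% of all genes changed. In SL 1 of 9 changed, Tdh, which was lower, where 21.6% of all genes changed. All miniSOX libraries are of the second wave and all SOX2 libraries in SL of the first, so wave and line cannot be told apart in SL except through the 2i libraries. The adjustment is large for some genes. For Utf1 in SL the miniSOX libraries (3619 and 3647) lie below the SOX2 libraries (4411 and 4902), but the fitted change is 0.56 ± 0.32. For Lin28a the miniSOX libraries (2954 and 3035) and the SOX2 libraries (3034 and 2394) overlap, but the fitted change is -1.15 ± 0.47. Neither of these 2 passed. Trophectoderm markers moved with the same comparison: 8 of 12 were higher and 0 lower in SL, with sums of 16947 to 16980 in miniSOX and 1818 to 2546 in SOX2 libraries, and Cdx2 was at most 20 in both. In 2i 4 were higher and 1 lower, with sums of 3952 to 3991 in miniSOX and 1957 to 2377 in SOX2 libraries. Of 11 fibroblast markers 5 were higher and 1 lower in SL, with sums of 10368 to 10622 in miniSOX and 8637 to 10083 in SOX2 libraries and Lum at 0 in both. Their part in the miniSOX results was not tested.

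Each line was also set against NTC cells. In 2i, 8 of 9 changed in FNV cells (2 higher and 6 lower; all but Pou5f1), against 39.7% of all genes. Within the second wave alone, with 2 FNV libraries and 1 NTC library, 2 of these passed, Utf1 and Lin28a. MiniSOX cells gave 3 of 9, Fbxo15 higher and Sall4 and Lin28a lower, against 27.7%, and SOX2 cells 4 of 9, Utf1 higher and Tdh, Mycn and Lin28a lower, against 28.7%. In SL no gene was lower in any line: FNV cells had 3 of 9 higher (Pou5f1, Tdh and Jam2) against 30% of all genes, miniSOX cells 1 (Jam2) against 19.6%, and SOX2 cells 1 (Jam2) against 15%. The 3 lines were compared with the same NTC libraries. NTC cells differ from all 3 in lentivirus, listed DOX treatment and silencing of SOX2 together, so these cannot be told apart. In SL the summed trophectoderm markers were 2672 to 2832 in FNV, 16947 to 16980 in miniSOX and 1818 to 2546 in SOX2 libraries, against 9993 to 10099 in NTC libraries. Of the 12 markers, 1 was higher and 5 lower in FNV, 2 higher and 0 lower in miniSOX, and 1 higher and 7 lower in SOX2 cells. In 2i the sums were 6733 to 9025 in FNV, 3952 to 3991 in miniSOX and 1957 to 2377 in SOX2 libraries, against 2351 to 3069 in NTC libraries. There 6 markers were higher and 1 lower in FNV, 2 higher and 1 lower in miniSOX, and 1 higher and 6 lower in SOX2 cells. The part of these cells in the comparisons with NTC cells was not tested.

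**Figure D3:**
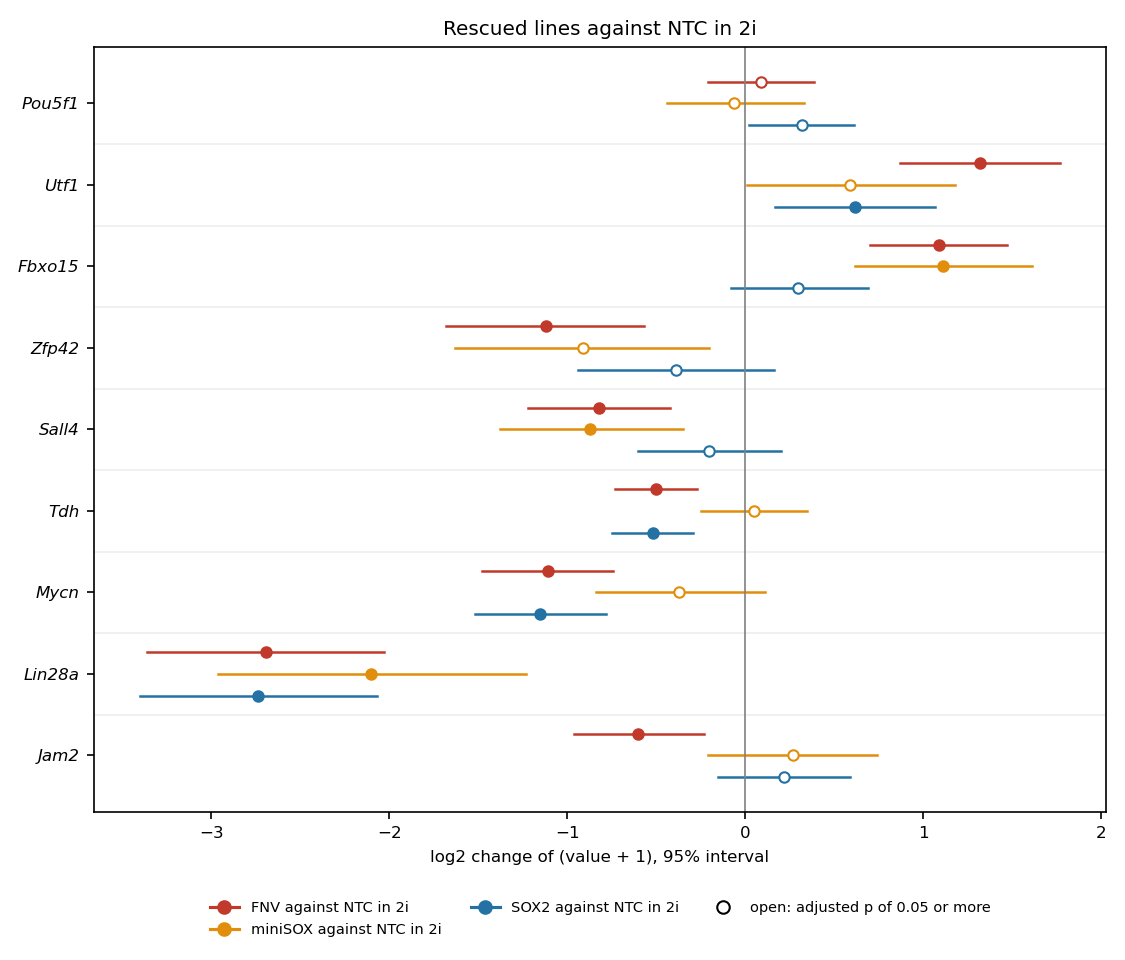
Log2 change of (value + 1) of each gene in FNV, miniSOX and SOX2 cells against NTC cells in 2i, with 95% intervals and filled points where the adjusted p was under 0.05. Lin28a lies at -2.69 in FNV, -2.10 in miniSOX and -2.74 in SOX2 cells, and Mycn at -1.11, -0.37 and -1.15 in the same order of lines.

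The media were compared within each line. In FNV cells 6 of 9 genes changed between 2i and SL, against 40.6% of all genes; in miniSOX cells 5 of 9, against 33.4%; in SOX2 cells 7 of 9, against 44.9%; and in NTC cells 4 of 9, against 24.6%. Utf1 and Lin28a were lower in 2i in every line. The log2 changes of Utf1 were -1.74 ± 0.25 (SE) in FNV, -2.94 ± 0.27 in miniSOX, -2.36 ± 0.25 in SOX2 and -3.01 ± 0.26 in NTC cells, and those of Lin28a were -6.01 ± 0.37, -4.71 ± 0.40, -6.51 ± 0.37 and -3.42 ± 0.38 in the same order. The highest adjusted p of these 8 was 6.77e-05. With no wave term Lin28a was -5.35 in FNV and -5.85 in SOX2 cells. Other lists moved with the medium as well. Of 12 trophectoderm markers, 5 were higher and 2 lower in 2i in FNV cells, 2 higher and 9 lower in miniSOX, 3 higher and 6 lower in SOX2, and 2 higher and 7 lower in NTC cells. Of 12 reference genes, 1 was higher and 5 lower in FNV, 1 higher and 2 lower in miniSOX, 2 higher and 6 lower in SOX2, and 2 higher and 3 lower in NTC cells. Sox17, too, differed between media in FNV and miniSOX cells. The part of all these genes in the responses of the 9 genes was not tested.

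Jam2 and Tdh were higher in 2i in 3 lines. Jam2 was 5.15-fold higher in 2i than in SL in miniSOX, 6.29-fold in SOX2 and 9.55-fold in NTC cells, and Tdh 3.8-fold, 1.53-fold and 2.9-fold (highest adjusted p of these 6 = 0.00129). In FNV cells neither passed between media, at log2 changes of 0.39 ± 0.21 (interval -0.05 to 0.83, adjusted p = 0.148) for Jam2 and 0.08 ± 0.13 (interval -0.19 to 0.36, adjusted p = 0.645) for Tdh. Fbxo15 was higher in 2i in FNV (0.72 ± 0.21, adjusted p = 0.0136), miniSOX (1.18 ± 0.23, adjusted p = 0.00121) and SOX2 cells (1.06 ± 0.21, adjusted p = 0.000968), and differed by 0.07 ± 0.22 in NTC cells. The call in FNV cells ended without FNV replicate 1 (0.0679) or 2 (0.0618) in SL, and with no wave term (0.0909). Mycn was lower in 2i in FNV (-0.78 ± 0.20, adjusted p = 0.0066) and SOX2 cells (-0.65 ± 0.20, adjusted p = 0.0185), the second of which ended without SOX2 replicate 1 in SL (-0.53, adjusted p = 0.139). Sall4 was lower in 2i in FNV cells (-0.67 ± 0.22, adjusted p = 0.0255), which ended without FNV replicate 1 in 2i (0.0638) or FNV replicate 1 (0.163) or 2 (0.0528) in SL, and the change was -0.30 with no wave term.

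**Figure D4:**
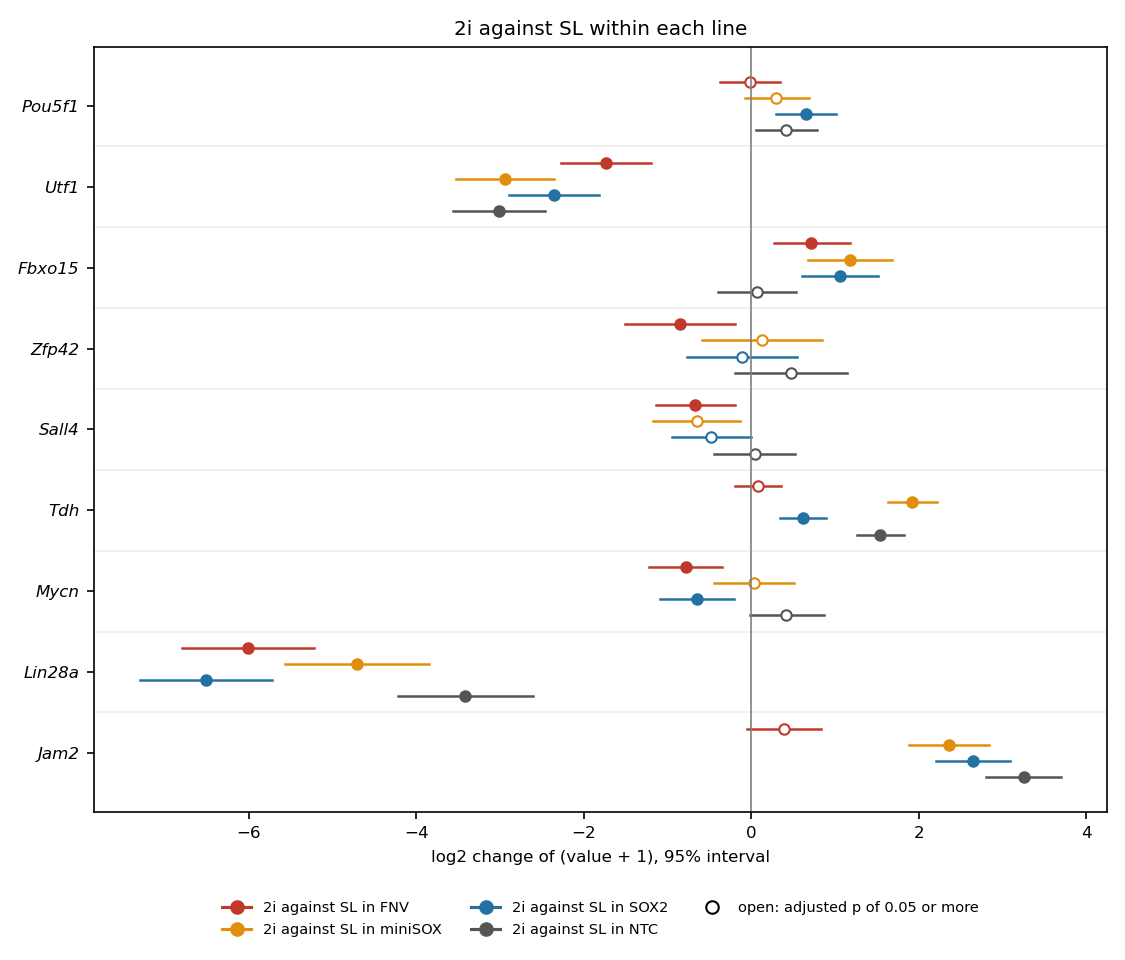
Log2 change of (value + 1) in 2i against SL of each gene in FNV, miniSOX, SOX2 and NTC cells, with 95% intervals and filled points where the adjusted p was under 0.05. Jam2 lies at 0.39 in FNV cells and at 2.36, 2.65 and 3.26 in miniSOX, SOX2 and NTC cells, while Utf1 and Lin28a lie below 0 in all 4 lines.

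The difference between the lines in their response to the medium was tested directly. For Jam2, 2i against SL was smaller in FNV than in SOX2 cells by a log2 difference of -2.26 ± 0.27 (SE, adjusted p = 8.97e-05), which held without any 1 library. Against SOX2 cells, 3 of the 9 genes passed this test, all downward (Jam2, Pou5f1 and Tdh), where 20.8% of all genes passed. The other 2 were at the threshold: Pou5f1 (-0.67 ± 0.22, adjusted p = 0.0448) lost its call without any of 14 of 21 libraries (adjusted p = 0.0518 to 0.187), and Tdh (-0.53 ± 0.17, adjusted p = 0.0397) without any of 12 (adjusted p = 0.0501 to 0.207). With the replicate number as a block their adjusted p were 0.0503 and 0.0508, and only Jam2 passed.

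The same difference was taken against the other lines, comparisons chosen after the values were seen. Against NTC cells 6 of 9 genes passed (1 higher and 5 lower), where 25.8% of all genes did. Jam2 gave -2.86 ± 0.28 (adjusted p = 7.12e-06), Lin28a -2.59 ± 0.51 (adjusted p = 0.00181), Tdh -1.45 ± 0.18 (adjusted p = 4.17e-05) and Mycn -1.20 ± 0.28 (adjusted p = 0.0058), none of which a single left-out library ended. Lin28a did not pass with no wave term (adjusted p = 0.0704). With first-wave replicates averaged, the calls of Lin28a (-2.68) and Mycn (-1.21) ended, and those of Jam2 and Tdh did not. Utf1 (1.27 ± 0.35, adjusted p = 0.0139) and Zfp42 (-1.33 ± 0.42, adjusted p = 0.0314) passed but lost the call without 2 and 7 of the 21 libraries, with adjusted p up to 0.0681 and 0.117. Against miniSOX cells 3 of 9 passed, where 11.9% of all genes did: Jam2 (-1.97 ± 0.30, adjusted p = 0.000799), Tdh (-1.84 ± 0.19, adjusted p = 4.3e-05) and Utf1 (1.21 ± 0.37, adjusted p = 0.0479, lost without any of 17 libraries). These 3 tests share the FNV libraries.

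By the correlation of group means over the 8 groups, the genes most like Pou5f1 of 11131 were Ece2 (Pearson's r = 0.976), Spns1 (0.971) and Nfu1 (0.967), but the group means of Ece2 spanned 2.05 on the log2 scale and those of Pou5f1 0.83. Tbx3, a T-box factor of naive pluripotency, was most like Jam2 (0.973), Znhit2 most like Mycn (0.995), and Sft2d2 most like Utf1 (0.987). Among the 9 genes, Jam2 and Pou5f1 gave r = 0.92, Jam2 and Tdh 0.89, Utf1 and Lin28a 0.86, Jam2 and Utf1 -0.85, and Fbxo15 and Sall4 -0.86. These values rest on 8 points, of which 4 share each medium, and on the best of many genes. Exons of Pou5f1, Sall4, Tdh and Lin28a overlap an antisense gene (Gm19553, Gm14261, Gm17232 and Gm13061), and no source used here says whether reads were counted by strand, so reads of these pairs cannot be told apart.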

How the data were processed

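RNA of 21 libraries was analysed from 1 deposited table of 16443 genes. Per the labels' protocols, oligo(dT) selection was followed by fragmentation and random-hexamer priming. Per the submitters' processing notes, RSEM, Bowtie2 2.0 and mm10 were used. The unit of the deposited table is a score, since the authors brought libraries to 1 common scale and rounded: totals run from 14044316 to 14047262, and values of the same rank differ by at most 3. No source used here names the normalization software. Of the columns, 16 matched 1 sample each and 5 (p21 and p31) only a group.

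The test was limma 3.58.1 (R 4.3.3) with trend and robust moderation on log2(value + 1), with terms for 8 groups and the wave, 12 residual degrees of freedom, and two-sided p-values adjusted by Benjamini-Hochberg over all genes (threshold 0.05). The filter (at least 1 in 2 libraries) left out 0 genes. The script was tested on simulated data. The 9 genes, the 12 gene lists (Pou5f1 regulators and partners, POU family, other OCT4-SOX2 targets, LIN28 and let-7 pathway, MYC and MAX network, one-carbon metabolism, Sall and NuRD, reference genes, and trophectoderm, primitive endoderm, fibroblast and embryonic stem cell markers) and the tests were chosen with earlier results of these data known. All 9 genes are named, with up to 4 genes of each list by smallest adjusted p in FNV against SOX2 cells in 2i and the 3 genes most like each, of which a part, chosen after their values were seen, is printed. Coordinates are from GENCODE M21 (GRCm38), in which all 16443 identifiers were found and 16364 symbols are identical. The search for SOX and OCT motifs around gene starts was not run, because genome sequence was not used here. Alternatives covered the pseudocount (10), a filter at a mean of 50, repeated quantile normalization, median centring, the wave term, single waves, averaged first-wave replicates, a replicate block, the groups in the fit, moderation, each library left out, and, chosen after seeing the data, p21 and p31 as terms. The p21 and p31 terms replaced the wave term, so no term covered the wave of the miniSOX libraries. Figures were drawn with matplotlib 3.10.9.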

Additional observations from a re-analysis of the deposited data

Results flagged for a closer look

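In FNV cells in 2i the p31 library stood away from the other 3 libraries for Pou5f1 (12486 against 9718 to 10050) and for Lin28a (120 against 32 to 38). Chance alone puts about 1 in 20 groups of this size past the limit used. In SOX2 cells the p31 library was also the highest for Pou5f1 (16422), and for Lin28a the p21 library was (113).

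The change of FNV against SOX2 cells differed between 2i and SL, by the interaction term, for Jam2 (log2 difference -2.26), Pou5f1 (-0.67) and Tdh (-0.53). Jam2 was -0.82 in 2i and 1.44 in SL, Pou5f1 -0.23 in 2i and 0.44 in SL, and Tdh 0.02 in 2i and 0.55 in SL. Jam2 alone held this difference when any single library was left out.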

How the results depend on the processing

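Depth is unknown, and 2 libraries in most groups limit the precision. Of the gene-level values over all alternatives, 1603 of 1722 with a library left out and 795 of 918 others kept their direction and side of the threshold, and of 2124 values for changed genes 1911 did, 212 lost the call and 1 turned round. A left-out library outside the groups compared bears on a comparison only through the wave term and the shared spread. The cause of each difference below was not tested.

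The counts of the 9 genes that changed moved by over 1.5 times as follows, main count first. Over all genes the number that changed moved as well, in 10 of 17 comparisons with no wave term and 3 of 11 in the first wave. Ranges over all genes close this section. The counts of the 9 genes here are not set against all genes comparison by comparison, so they do not show a move particular to the 9. With no wave term, FNV against SOX2 in 2i went 5 to 2, miniSOX against SOX2 in 2i 3 to 1, against NTC in 2i 3 to 1 and in SL 1 to 0, SOX2 against NTC in SL 1 to 0, 2i against SL in FNV 6 to 3, and the FNV-SOX2 and FNV-NTC differences between media 3 to 1 and 6 to 3. In the first wave only, FNV against SOX2 in SL gave 6 (main 3), SOX2 against NTC in SL 4 (main 1), 2i against SL in NTC 7 (main 4) and the FNV-SOX2 difference between media 6 (main 3). In the second wave only, FNV against SOX2 in 2i gave 1 (main 5), miniSOX against SOX2 0 (main 3), SOX2 against NTC 2 (main 4) and FNV against NTC 2 (main 8). With first-wave replicates averaged, FNV and miniSOX against SOX2 gave 0 in both media, SOX2 and miniSOX against NTC in SL 0, SOX2 against NTC in 2i 2, 2i against SL in SOX2 3 (main 7) and in FNV 2, and the differences between media 1 against SOX2, 2 against NTC and 1 against miniSOX. With only the groups compared in the fit, FNV against SOX2 in 2i gave 2, FNV against NTC in 2i 5, miniSOX against SOX2 in SL 4 (main 1), miniSOX against NTC 7 in 2i and 7 in SL, and 2i against SL 7 in NTC and 2 in FNV. With p21 and p31 terms, miniSOX against SOX2 gave 5 in 2i and 2 in SL, against NTC in SL 4, SOX2 against NTC in SL 3, and the FNV-miniSOX difference between media 5. That fit leaves the miniSOX libraries unadjusted for the wave. SOX2 against NTC in SL gave 2 at a mean of at least 50. With no trend and no robust moderation the FNV-SOX2 difference between media gave 1. Leaving out a library gave 3 to 5 for FNV against SOX2 in 2i, 0 to 4 and 1 to 3 for miniSOX against SOX2 in 2i and SL, 0 to 3 for SOX2 against NTC in SL, 1 to 2 for miniSOX against NTC in SL, 3 to 6 for 2i against SL in FNV and 1 to 3 for the FNV-SOX2 difference between media.

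Changes of sign were found for values that did not pass and, among those that did, for Jam2 in FNV against NTC in 2i (0.11 within the second wave). In FNV against SOX2 in 2i these were Tdh (-0.07 in the second wave, -0.01 with averaged replicates, -0.07 to 0.13 with a library left out), Mycn (-0.03 in the first wave, -0.14 to 0.19) and Lin28a (-0.15 in the second wave, -0.02 with averaged replicates, -0.22 to 0.40). Leaving out a library gave -0.11 to 0.26 for Utf1 and -0.14 to 0.14 for Zfp42 in FNV against SOX2 in SL, and -0.31 to 0.01 for Mycn in the difference between media.

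Replicate numbers 1 and 2 did not pair the samples: over 28 pairs of same-numbered libraries the correlation of deviations ran from -0.092 to 0.086. The replicate block left 1 of 3 genes in the FNV-SOX2 difference between media (Jam2), ended Utf1 in that of FNV and miniSOX (adjusted p = 0.0544), and moved no other count of the 9 genes. Over all genes, 1960 to 7381 changed in the 17 comparisons, against 1157 to 5672 with no wave term (over 1.5 times different in 10), 179 to 4335 with averaged replicates (16), 4538 to 8340 in the first wave (3 of 11), 835 to 4737 in the second (5 of 6), 1645 to 7834 with only the groups compared (2), 2407 to 7668 with p21 and p31 terms (2) and 871 to 7962 with a library left out (26 of 357).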
